A study of Rattus norvegicus with 4 samples.

Results

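The circadian clock genes examined here were 10 genes, Clock, Arntl, Per1, Per2, Per3, Cry1, Cry2, Nr1d1, Nr1d2 and Dbp, chosen by gene symbol from the 32883 genes listed for the carotid body (CB), a small organ beside the carotid artery that senses the oxygen of the blood. Each symbol had 1 entry, and all 10 passed the filter of at least 1 CPM (a gene's share of the library's counts, scaled to a total of 1000000) in at least 2 libraries. The CBs came from Sprague-Dawley rats aged 5 days (neonates) or 21 days (here called adults, though an age near weaning), untreated and of no altered genotype, with 2 libraries per age and 4 in all. Each library held RNA pooled from 6 pups or 3 older rats by the labels. Larger pools and more replicates are described in the paper. Mothers were kept on a light-dark cycle, and pups were killed under urethane. The hour at which either age was killed is not given in the sources used here, so age and hour of collection cannot be told apart in any value below.

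The clock is a feedback loop of transcription. Clock and Arntl (Bmal1 in current naming) pair and activate genes through E-boxes, among them the Per and Cry genes, whose proteins return to block the pair. Nr1d1 and Nr1d2 (Rev-erb alpha and beta) repress Arntl through ROR elements, and Dbp, a PAR bZIP factor, acts on D-boxes and carries the rhythm to output genes. In many tissues the messenger RNA of Arntl peaks at the opposite time of day from that of Dbp and Nr1d1, so a level taken at a single time is a point on a cycle.

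Library totals ran from 36286191 to 39476110 counts, so that 3 counts, taken as the floor of detection, were 0.0760 to 0.0827 CPM. This floor covers counting error only. The libraries of an age differed by more than sampling noise and were counted as separate replicates, and nothing in the labels says that they came from separate litters. Neonate replicate 1 stood apart by parathyroid RNA, with Pth at 1595 CPM against 194 CPM in neonate replicate 2 and 0 in both adult libraries. Mitochondrially encoded genes took 15.6% to 18.7% of the counts in neonates and 9.06% to 9.08% in adults. Normalization by TMM (trimmed mean of M values) set the log2 fold change of the median gene at -0.0029, while library size alone set it at -0.25, which lowers every gene by about the same step. The glomus cell markers Th (781 to 1517 CPM) and Cox4i2 (180 to 315 CPM) were found in all 4 libraries. These were whole CBs, in which fewer cells of a type and less RNA per cell cannot be told apart.

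RefSeq promoter windows of 300 bases on the rat assembly GRCr8 (250 before and 50 from the start) were matched for 9 of the 10 genes, with no entry for Cry1. They were searched on both strands for the E-box CACGTG, its variant CACGTT, the D-box TTATGTAA or TTACGTAA, the ROR half-site TAGGTCA or TGGGTCA and the cAMP element TGACGTCA. CACGTT was held by 3 of the 9 windows (Per2, Cry2 and Nr1d1) and by 4.83% of all 33469 promoters, CACGTG by 0 of 9 and 6.42%, the D-box by 1 (Per2) and 1.01%, the ROR half-site by 1 (Arntl) and 6.60%, and the cAMP element by 0 and 1.83%. Among the genes of the wider clock machinery, CACGTG was in 7 of 35 windows, of which Ciart held 3 copies. The windows of Arntl, Per2, Cry2 and Nr1d1 are shown because they are the members with a match, and those of Tef and Bhlhe40 as genes of transcription factors that hold a CACGTG and were lower in neonates. The kinase gene Gsk3b, also lower, held a CACGTG at -195 in a window not shown. Ciart and Lonrf3, which hold CACGTG as well, did not pass in either direction. Bhlhe41, a transcription factor gene that also holds CACGTG, was not tested. Another of the 7 windows is that of a gene not found by symbol among the counts. The windows of Tef and Bhlhe40 were thus picked with their direction known, and no link of motif and level was tested. Capitals mark the matches, none of which share bases. The windows of Per1, Tef, Ciart and Gsk3b belong to starts that lie 5374, 9647, 1532 and 1416 bases inside the annotated gene. Other starts of these genes were not searched. A match is a string of letters and not a bound site.
Arntl (GRCr8 chr1:176766078-176766377, + strand): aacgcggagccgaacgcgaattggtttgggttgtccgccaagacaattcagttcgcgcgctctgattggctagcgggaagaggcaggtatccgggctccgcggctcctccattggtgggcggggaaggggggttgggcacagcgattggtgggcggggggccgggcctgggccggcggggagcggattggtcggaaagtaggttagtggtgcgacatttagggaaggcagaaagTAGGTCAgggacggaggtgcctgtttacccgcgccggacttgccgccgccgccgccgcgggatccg
Per2 (GRCr8 chr9:99496944-99497243, - strand): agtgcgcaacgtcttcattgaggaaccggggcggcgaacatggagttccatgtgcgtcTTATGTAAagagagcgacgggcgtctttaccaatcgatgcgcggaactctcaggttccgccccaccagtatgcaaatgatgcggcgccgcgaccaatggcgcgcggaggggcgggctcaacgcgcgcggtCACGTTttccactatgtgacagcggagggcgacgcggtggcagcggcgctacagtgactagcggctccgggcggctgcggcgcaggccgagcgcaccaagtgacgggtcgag
Cry2 (GRCr8 chr3:98860388-98860687, - strand): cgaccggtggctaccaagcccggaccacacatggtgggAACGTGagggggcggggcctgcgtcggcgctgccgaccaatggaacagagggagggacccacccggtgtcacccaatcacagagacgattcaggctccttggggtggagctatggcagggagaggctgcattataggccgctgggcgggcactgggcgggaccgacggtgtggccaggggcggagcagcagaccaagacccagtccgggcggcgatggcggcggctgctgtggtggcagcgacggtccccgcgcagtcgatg
Nr1d1 (GRCr8 chr10:84231763-84232062, - strand): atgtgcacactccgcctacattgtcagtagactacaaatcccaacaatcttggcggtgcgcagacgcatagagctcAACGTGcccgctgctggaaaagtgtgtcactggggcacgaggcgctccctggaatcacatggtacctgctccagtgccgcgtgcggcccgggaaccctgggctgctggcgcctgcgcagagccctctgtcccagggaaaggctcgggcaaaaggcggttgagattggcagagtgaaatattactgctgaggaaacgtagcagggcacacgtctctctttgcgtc
Tef (GRCr8 chr7:115206577-115206876, + strand): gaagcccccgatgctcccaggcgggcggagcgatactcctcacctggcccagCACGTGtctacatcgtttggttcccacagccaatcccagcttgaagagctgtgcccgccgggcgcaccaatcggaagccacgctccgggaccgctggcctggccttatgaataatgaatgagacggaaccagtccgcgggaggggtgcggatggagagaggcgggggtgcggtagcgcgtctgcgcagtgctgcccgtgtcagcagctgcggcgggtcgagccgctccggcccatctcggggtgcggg
Bhlhe40 (GRCr8 chr4:143174200-143174499, + strand): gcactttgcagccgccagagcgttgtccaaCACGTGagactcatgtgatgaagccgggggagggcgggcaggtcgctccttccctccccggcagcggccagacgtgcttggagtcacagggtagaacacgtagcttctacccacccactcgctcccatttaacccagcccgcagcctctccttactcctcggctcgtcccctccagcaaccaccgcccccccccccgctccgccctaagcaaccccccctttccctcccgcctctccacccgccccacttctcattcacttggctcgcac
Counted from the start base as 0, the half-site of Arntl began at position -16, the D-box and the CACGTT of Per2 at -192 and -62, the CACGTT of Cry2 at -212 and of Nr1d1 at -174, and the CACGTG of Tef at -198 and of Bhlhe40 at -220.

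Neonates were compared with adults to ask how the clock genes differ between the immature and the more mature CB. Of the 10 genes, 4 were higher in neonates (Arntl, Per2, Cry1 and Cry2) and 6 were lower (Clock, Per1, Per3, Nr1d1, Nr1d2 and Dbp) at a Benjamini-Hochberg adjusted p under 0.05 by the quasi-likelihood test of edgeR, from which all adjusted p below come. SE is the standard error of a log2 fold change. Of all 13843 genes tested, 62.3% passed in either direction, 31.2% higher and 31.1% lower, so most genes of the CB also differed by this rule. With a fold change of at least 2 required as well, 1 of the 10 was left (Per1, lower), against 20.8% of all genes (13.2% lower and 7.68% higher in neonates). Under library size alone 4 members were lower by at least 2-fold, Per1 (-1.96), Clock (-1.12), Nr1d2 (-1.06) and Nr1d1 (-1.02), against 18.4% of all genes. Nr1d1 also passed that fold without neonate replicate 2 (-1.01) and, just past it, without adult replicate 2. Before normalization the CPM of the 2 ages did not overlap for 8 of the 10, against 83.1% of all genes, and Per2 and Cry1 overlapped. The median log2 fold change of the 10, neonate over adult, was -0.68, and their median absolute log2 fold change was 0.68 against 0.49 over all genes. All 6 lower genes remained lower, and past the threshold, in each of the 14 alternatives tried. Of the 4 higher genes, only Arntl passed under library size alone, with an adjusted p of 0.0481 from edgeR's test. Under that scaling 18.7% of all genes were higher and 43.3% lower in neonates.

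**Figure D1:**
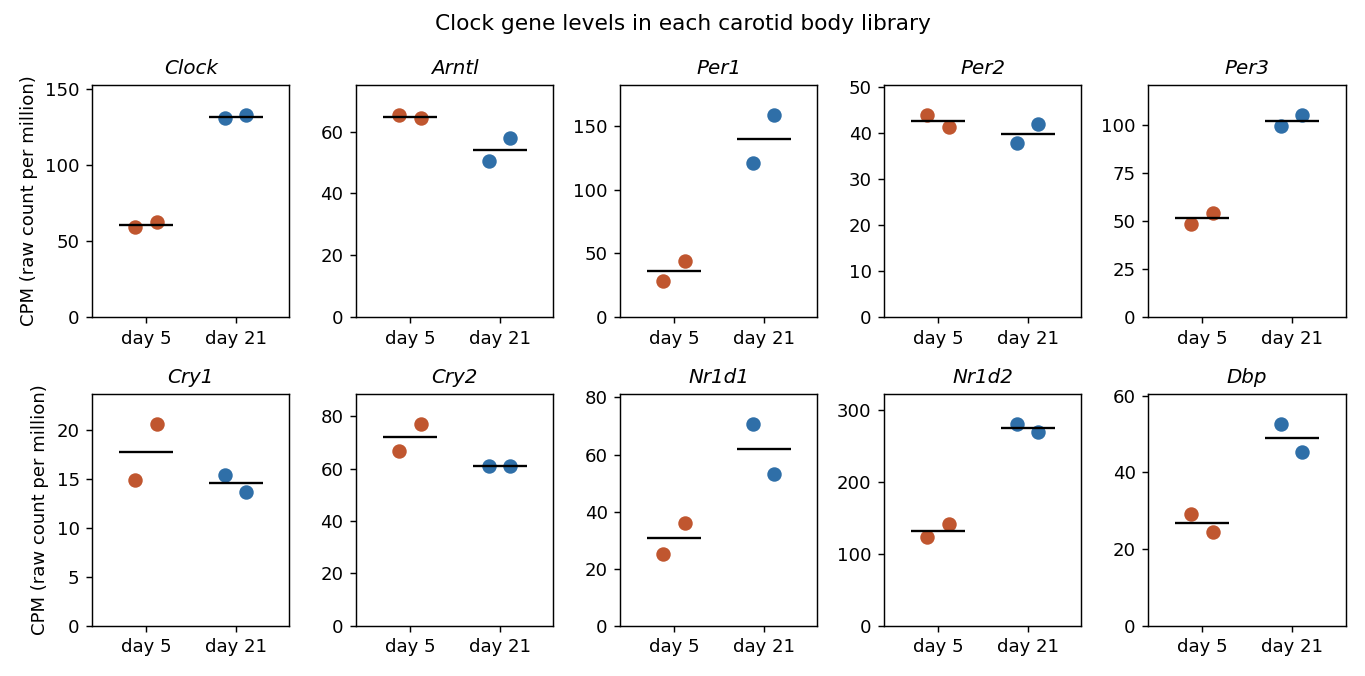
CPM (before TMM) of the 10 clock genes in each library, with points for the 2 libraries at day 5 and the 2 at day 21 and a bar for their mean, each panel on its own axis from 0. The points of the 2 ages overlap in the panels of Per2 and Cry1, and the widest gap in proportion is that of Per1.

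The partners of the activating pair went opposite ways. Clock, a basic helix-loop-helix PAS factor, had 59.0 and 62.2 CPM in the neonatal libraries and 131 and 133 CPM in the adult libraries. The libraries of an age lay close together and the ages far apart. After TMM the log2 fold change was -0.87 (SE 0.075, edgeR's adjusted p = 2.35e-05), or 1.83-fold higher in adults. Arntl had 65.3 and 64.3 CPM in neonates and 50.4 and 57.9 CPM in adults, with both neonatal libraries above both adult ones. This gave a log2 fold change of 0.51 (SE 0.096, edgeR's adjusted p = 0.00168), or 1.42-fold higher in neonates. In each library the ratio of Clock to Arntl does not depend on scaling, and the log2 ratio was -0.15 and -0.047 in neonates and 1.37 and 1.20 in adults. The means differed by -1.38 (neonate minus adult), without overlap. Over 2 libraries per age, the exact two-sided permutation test cannot give a p under 0.333, and that was its value here.

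The 3 Period genes, whose proteins are the rhythmic repressors of the pair, did not move together. Per1 had 28.1 and 43.7 CPM in neonates and 121 and 159 CPM in adults. The neonatal libraries differed between themselves by more than those of most members, and the higher of them was still far below both adult libraries. At -1.72 on the log2 scale (SE 0.18, edgeR's adjusted p = 6.65e-05), or 3.30-fold higher in adults, Per1 changed most among the 10, and its absolute change was above that of 92.6% of all genes. Per3 had 48.7 and 54.3 CPM in neonates and 99.5 and 105 CPM in adults. The log2 fold change was -0.75 (SE 0.085, edgeR's adjusted p = 9.20e-05), or 1.68-fold higher in adults. Per2 had 44.0 and 41.3 CPM in neonates and 37.8 and 42.1 CPM in adults, and the ages overlapped before TMM. After TMM its CPM were 48.9 and 44.3 in neonates and 35.1 and 38.5 in adults, without overlap. The log2 fold change of Per2 was then 0.34 (SE 0.099, edgeR's adjusted p = 0.0145), and under library size alone it was 0.094 (edgeR's adjusted p = 0.429). The call of Per2 was also lost without neonate replicate 1 (0.28, edgeR's adjusted p = 0.0505) and without adult replicate 1 (0.25, edgeR's adjusted p = 0.170). The within-library log2 ratio of Per2 to Per1 was 0.65 and -0.082 in neonates and -1.68 and -1.91 in adults, a 4.23-fold difference without overlap (exact two-sided permutation p = 0.333, the smallest possible).

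Cry1 and Cry2 encode the cryptochromes, which hold the pair in its repressed state. Cry1, the member with the fewest counts (497 to 793 per library), had 14.9 and 20.6 CPM in neonates and 15.4 and 13.7 CPM in adults. Before TMM neonate replicate 1 lay between the adult libraries. After TMM the CPM of Cry1 were 16.5 and 22.1 in neonates and 14.2 and 12.5 in adults, without overlap. The log2 fold change was 0.53 (SE 0.16, edgeR's adjusted p = 0.0190), but 0.32 without neonate replicate 2 (edgeR's adjusted p = 0.121) and 0.41 without adult replicate 2 (edgeR's adjusted p = 0.107), so the call rests on those libraries. Cry2 had 66.7 and 77.1 CPM in neonates and 61.1 and 60.8 CPM in adults, without overlap. The fitted difference was 0.48 on the log2 scale (SE 0.090, edgeR's adjusted p = 0.00152). Under library size alone the adjusted p from edgeR was 0.172 for Cry1 and 0.0625 for Cry2. Relative to Arntl in the same library, neither Cry1 nor Cry2 parted the ages, with differences of the mean log2 ratio of 0.0067 and -0.028. The log2 ratio of Cry2 to Cry1 ran from 1.90 to 2.16 in neonates and from 1.99 to 2.15 in adults.

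Nr1d1 and Nr1d2, the nuclear receptors that repress Arntl, were both lower in neonates. Nr1d1 had 25.2 and 36.0 CPM in neonates and 70.7 and 53.3 CPM in adults. It had one of the widest spreads between libraries of an age among the 10, and the ages did not overlap. The fitted log2 fold change was -0.78 (SE 0.17, edgeR's adjusted p = 0.00392), or 1.72-fold higher in adults. Nr1d2 had 123 and 142 CPM in neonates and 281 and 270 CPM in adults. The log2 fold change was -0.81 (SE 0.085, edgeR's adjusted p = 5.88e-05), or 1.76-fold higher in adults. The log2 ratio of Nr1d2 to Nr1d1 was 1.98 to 2.29 in neonates and 1.99 to 2.34 in adults, with overlap, so the data show no difference between ages in that ratio beyond the spread. On GRCr8, Nr1d1 overlaps Thra, a thyroid hormone receptor gene, and reads of the 2 genes cannot be told apart where counting did not use the strand, which is not stated. Thra had 135 and 151 CPM in neonates and 188 and 183 CPM in adults, and its log2 fold change was -0.14 (SE 0.078, edgeR's adjusted p = 0.158). RefSeq places no other named gene across a member, apart from uncharacterized loci at Clock, Cry1, Cry2 and Per2.

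Dbp, the output factor, had 29.2 and 24.5 CPM in neonates and 52.6 and 45.3 CPM in adults, without overlap. Its log2 fold change was -0.62 (SE 0.13, edgeR's adjusted p = 0.00252), or 1.53-fold higher in adults.

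**Figure D2:**
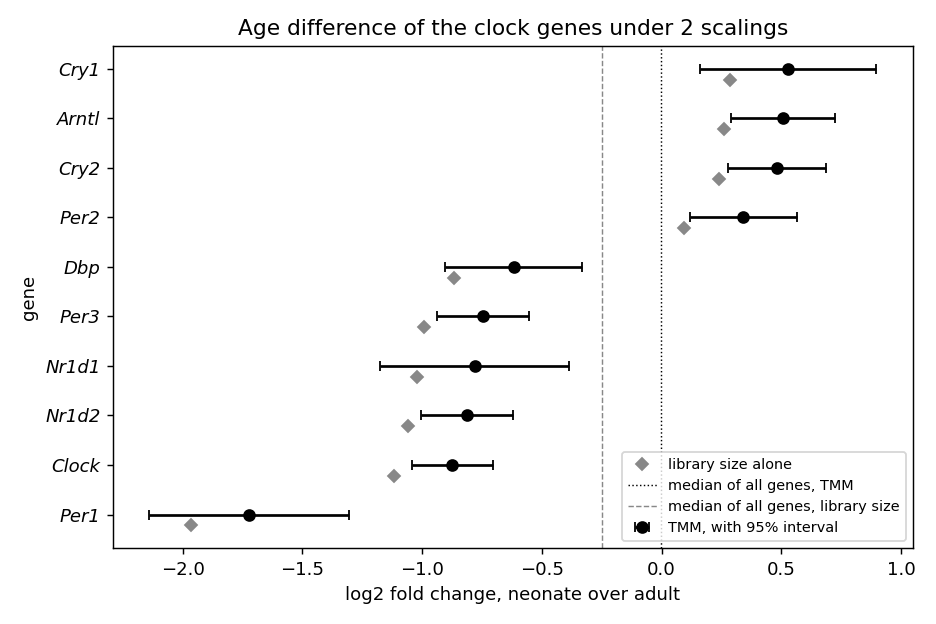
Log2 fold change (neonate over adult, horizontal axis) of each clock gene after TMM, as black points with the 95% interval from edgeR's fit, and with library size alone, as grey diamonds, beside the median of all genes under each scaling. Per1 lies farthest to the left at -1.72 and Cry1 farthest to the right at 0.53, and with library size alone all points shift to lower values.

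Set against Arntl in the same library, the genes fell into different patterns. The log2 ratio of Dbp to Arntl was -1.16 and -1.39 in neonates and 0.062 and -0.35 in adults. For Nr1d1 the ratio was -1.37 and -0.84 in neonates and 0.49 and -0.12 in adults. Per1, Per3 and Nr1d2 also had a lower ratio in both neonatal libraries than in both adult ones, by 2.25, 1.25 and 1.32 on the log2 scale. For Per2 the ratio did not overlap either, at -0.57 and -0.64 in neonates against -0.41 and -0.46 in adults, a difference of means of -0.17. Of the 13 ratios computed, 9 had no overlap between ages. Each of the 9 had an exact two-sided permutation p of 0.333 (0.481 after Benjamini-Hochberg adjustment over the 13). Among single genes, 83.1% of all tested had no overlap of CPM between ages. The share over all pairs of genes was not computed, so the count cannot be read as a trait of clock genes. Ratios that share Arntl are not independent of each other.

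**Figure D3:**
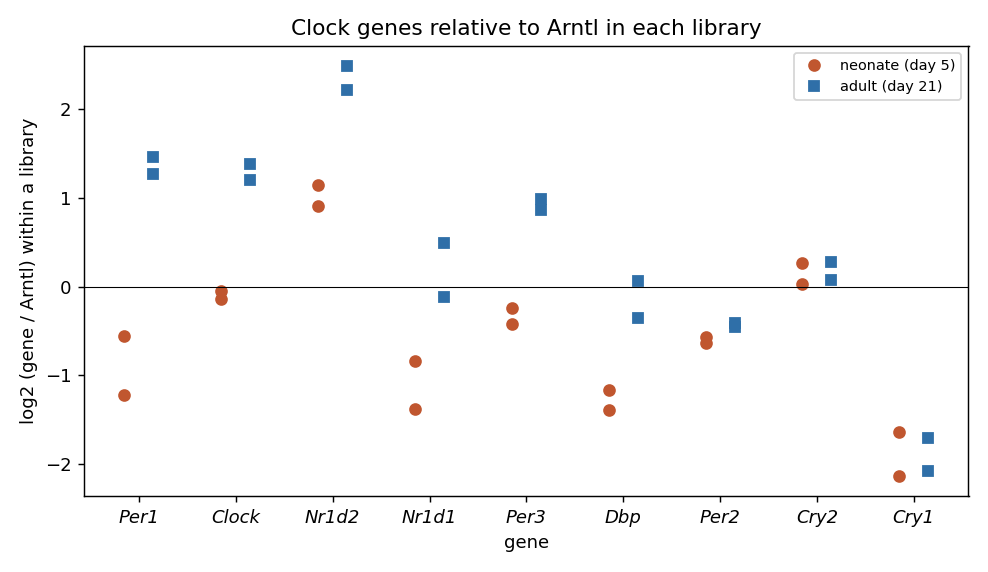
Log2 ratio of each clock gene to Arntl (vertical axis) in the 2 neonatal libraries (circles) and the 2 adult libraries (squares). The ages are apart for Per1, Clock, Nr1d2, Nr1d1, Per3, Dbp and, narrowly, Per2, and overlap for Cry2 and Cry1. Gene length was not corrected for, so heights of different genes are not comparable.

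The genes with a pattern most like that of Per1, by Euclidean distance of gene-centred log2 CPM over the 4 libraries, were Slc4a8 (distance 0.062), Antxr2 (0.088), Tmem88b (0.12), Hif3a (0.15) and Nt5dc3 (0.15). Of these, Antxr2, an anthrax toxin receptor, had 3.12 and 4.73 CPM in neonates and 13.9 and 18.8 CPM in adults. Hif3a, a subunit of the hypoxia-inducible factor family, had 0.785 and 1.25 CPM in neonates and 3.12 and 4.63 CPM in adults. With 4 libraries, such likeness is a description of level and spread only.

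Per1 is also known to respond within hours to cAMP and to glucocorticoids, apart from the time of day. All 9 genes listed for glucocorticoid response, which include the receptor gene Nr3c1, were lower in neonates in edgeR's test, beside 31.1% of all genes. By at least 2-fold 7 of them were lower, beside 13.2% of all genes. Zbtb16, among the 7, had 0.405 and 0.571 CPM in neonates and 4.82 and 3.86 CPM in adults. It passed the filter through the adult libraries alone, so the filter itself favoured its direction. The median log2 fold change of the 9 was -1.82 against -0.0029 over all genes. Klf9 had 8.03 and 8.78 CPM in neonates and 90.1 and 90.5 CPM in adults. Tsc22d3 (Gilz), which also stands in the list of clock outputs, had 109 and 127 CPM in neonates and 385 and 361 CPM in adults. Summed over the 9 genes, the level was 439 to 522 CPM in neonates and 1366 to 1392 CPM in adults. Of 10 immediate early genes, 3 were lower in neonates (Nr4a1, Arc and Atf3), 1 was higher (Ier2) and 6 did not pass, with a median of -0.49. This is to be read beside 31.1% of all genes lower and 31.2% higher. The part of either list in the level of Per1 was not tested.

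Of 46 other genes of the clock machinery, listed by role, 44 were found by symbol and 41 passed the filter. Of these, 6 were higher and 18 lower in neonates in edgeR's test and 17 did not pass, which is to be read beside 31.2% and 31.1% of all genes. At 2-fold or more, 1 was higher and 10 lower, beside 7.68% and 13.2% of all genes. Under library size alone 4 were higher and 25 lower, beside 18.7% and 43.3% of all genes. Their median log2 fold change was -0.23. Among the 18 lower, and among the 10 lower by 2-fold, Rora and Prkaa2 passed the filter through the adult libraries alone. For them the filter itself favoured the lower direction.

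Among the activators, Npas2, which can stand in for Clock as the partner of Arntl, had 4.31 and 4.93 CPM in neonates and 13.5 and 17.9 CPM in adults. Its log2 fold change was -1.52 (SE 0.20, edgeR's adjusted p = 0.000219), in the same direction as Clock. The ROR receptors activate Arntl at the elements that Nr1d1 and Nr1d2 occupy. Rorb had 2.13 and 2.10 CPM in neonates and 5.98 and 6.09 CPM in adults (log2 fold change -1.27, edgeR's adjusted p = 0.00238). Rora, at 0.405 and 0.701 CPM in neonates and 1.32 and 2.15 CPM in adults, passed the filter through the adult libraries alone. It was at -1.40 on the log2 scale (SE 0.46, edgeR's adjusted p = 0.0239). Without neonate replicate 1 it was at -1.07 and no longer passed (edgeR's adjusted p = 0.0665), and it fell under the filter without either adult library. Arntl2 was at or under 0.165 CPM in every library and was not tested.

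Tef, a PAR bZIP factor like Dbp, had 96.6 and 98.0 CPM in neonates and 263 and 250 CPM in adults. Its log2 fold change of -1.15 (SE 0.077, edgeR's adjusted p = 7.06e-06) was in the direction of Dbp. Hlf, of the same family, had 4 and 8 counts in neonates and 60 and 26 in adults and did not pass the filter. Without the filter its log2 fold change was -2.67 (edgeR's adjusted p = 0.0149). Nfil3, the repressor that competes at D-boxes, had 12.0 and 13.1 CPM in neonates and 13.8 and 14.0 CPM in adults and did not pass (0.092, edgeR's adjusted p = 0.581). Bhlhe40 (Dec1), an E-box repressor, had 8.28 and 9.12 CPM in neonates and 25.6 and 23.6 CPM in adults, which gave -1.25 on the log2 scale (SE 0.13, edgeR's adjusted p = 5.87e-05). Its paralog Bhlhe41, at 0.177 to 1.03 CPM, was not tested. Cipc, an inhibitor of the activating pair, was lower in neonates as well (-0.82, edgeR's adjusted p = 0.000144). Ciart (Chrono), another repressor, had 2.18 and 4.39 CPM in neonates and 2.57 and 1.85 CPM in adults. The ages overlapped before TMM. After TMM they were narrowly apart, with 2.42 CPM in neonate replicate 1 and 2.38 CPM in adult replicate 1. The log2 fold change of Ciart, 0.81 (SE 0.38, 95% interval -0.065 to 1.68), did not pass (edgeR's adjusted p = 0.0959). Without neonate replicate 1 it was at 1.22 and passed (edgeR's adjusted p = 0.00687).

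Timeless was the gene of the 41 farthest toward neonates, with 41.0 and 34.4 CPM against 13.0 and 11.4 CPM (log2 fold change 1.88, SE 0.13, edgeR's adjusted p = 9.79e-06). In mammals its best known role is at the replication fork. The 5 cell cycle markers (Mki67, Top2a, Cdk1, Ccna2 and Ccnb1) were all higher in neonates, beside 31.2% of all genes. Their summed level was 405 to 464 CPM against 117 to 120 CPM, and their part in the level of Timeless was not tested.

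Of 10 kinases, 2 were higher and 3 lower in neonates and 5 did not pass. The counts of this paragraph are to be read beside 31.2% of all genes higher and 31.1% lower. The casein kinase 1 isoforms that phosphorylate the PER proteins, Csnk1d and Csnk1e, did not pass, with log2 fold changes of -0.17 (95% interval -0.35 to 0.0030) and 0.16 (-0.048 to 0.37). Csnk1d passed in 3 of the 14 alternatives, with library size alone (-0.42, edgeR's adjusted p = 0.00201), with a mean of at least 5 CPM required (-0.21, 0.0334) and without adult replicate 2 (-0.25, 0.0359). Under library size alone Csnk1e was below 0, at -0.084, and it passed without neonate replicate 1 (0.26, edgeR's adjusted p = 0.0409). The subunits of casein kinase 2 split, since the catalytic Csnk2a1 had 18.1 and 17.5 CPM in neonates and 54.2 and 58.9 CPM in adults (log2 fold change -1.42), while Csnk2a2 and the regulatory Csnk2b were higher in neonates at 0.60 and 0.90. Gsk3b (-0.94) and Prkaa2 (-2.73) were lower in neonates. Prkaa2 had 0.279 and 0.312 CPM in neonates and 2.70 and 1.98 CPM in adults. It passed the filter through the adult libraries alone and fell under it without either of them. Of 6 ubiquitin ligases and deubiquitinases, 2 passed, both lower in neonates, Btrc (-0.47) and Fbxw11 (-0.41), which mark PER for degradation.

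Of 7 cofactors tested, 3 were higher in neonates (Sfpq at 0.81, Hdac3 at 0.33 and Nono at 0.33) and 3 lower (Kmt2a at -2.23, Ep300 at -1.32 and Ncor1 at -0.20). Counts of cofactors and outputs are to be read beside 31.2% of all genes higher and 31.1% lower. Under library size alone Hdac3 and Nono did not pass, at 0.089 and 0.082. Hdac3 was at 0.20 without adult replicate 2 and did not pass (edgeR's adjusted p = 0.173). Ncor1 passed narrowly (edgeR's adjusted p = 0.0465) and in 7 of the 14 alternatives. It was lost with DESeq2 (adjusted p = 0.0689), limma-voom (0.0526), TMM without mitochondrial and ribosomal genes (0.0593) and protein-coding genes alone (0.0520), and without adult replicate 1 (0.148) or either neonatal library (0.145 and 0.160). Of 8 output genes, none was higher in neonates, 4 were lower and 4 did not pass. The lower ones were Tsc22d3 (-1.42), Dtx4 (-0.87), Nampt (-0.72), which makes a precursor of NAD, and Wee1 (-0.51), a kinase that holds cells before mitosis. Dtx4 no longer passed without neonate replicate 2 (-0.51, edgeR's adjusted p = 0.115) or without adult replicate 2 (-0.59, edgeR's adjusted p = 0.235).

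**Figure D4:**
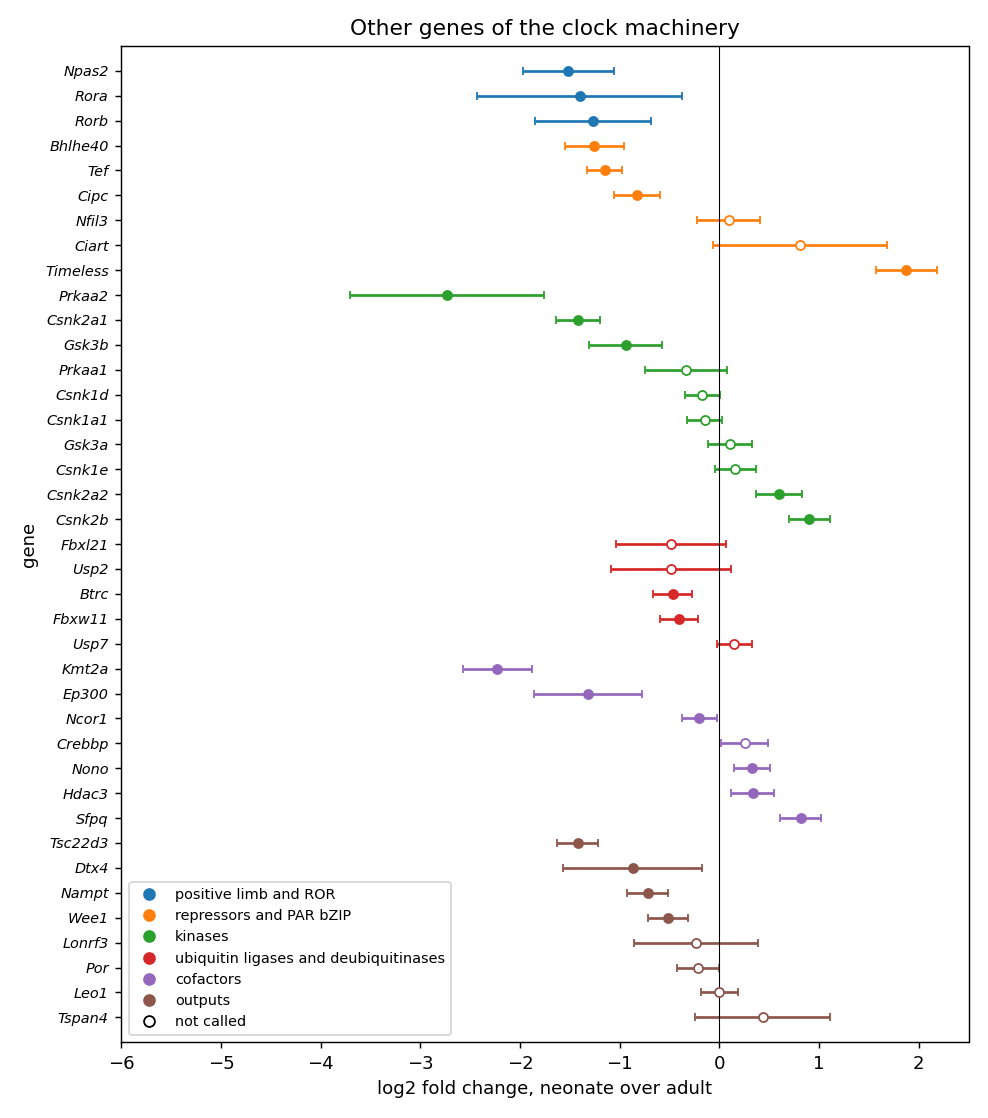
Log2 fold change (neonate over adult, with the 95% interval of edgeR's fit) of 39 of the 41 other clock machinery genes tested, coloured by role, with open points for genes that did not pass an adjusted p of 0.05. Prkaa2, which passed the filter through the adult libraries alone, lies lowest at -2.73 and Timeless highest at 1.88. The filled points on the left, among them Rora, which passed the filter in the same way as Prkaa2, outnumber those on the right.

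Markers of other cell types differed between ages beside the clock genes. Their counts are to be read beside 31.2% of all genes higher in neonates and 31.1% lower. All 3 adipocyte markers tested were lower in neonates, with a summed level over the list of 4.71 to 6.00 CPM against 26.3 to 39.1 CPM in adults, and Lep was at 0 in both neonatal libraries. Cidec, among the 3, was at 0.811 and 0.779 CPM in neonates and passed the filter through the adult libraries alone. Of 5 macrophage markers 4 were lower, with sums of 57.3 to 65.8 CPM against 120.1 to 120.3 CPM. Of 6 smooth muscle and pericyte markers 3 were lower and 1 higher, with sums of 1092 to 1168 CPM against 2142 to 2292 CPM. Of these, Rgs5 alone had 272 and 247 CPM in neonates against 1088 and 1062 CPM in adults, and Acta2 and Cnn1 did not pass. Of 5 fibroblast markers 3 were lower, with sums of 11665 to 14460 CPM against 17989 to 20194 CPM. Most of these sums came from Col1a1 and Col3a1, which did not pass. All 3 erythroid markers found were higher in neonates, with sums of 4803 to 7961 CPM against 2100 to 2308 CPM. Both parathyroid markers, Pth and Gcm2, were at 0 in adults, and the summed parathyroid and thyroid list was 197 and 1615 CPM in neonates and 0.606 to 0.794 CPM in adults. Of 7 glomus cell markers 4 were higher and 2 lower, with sums of 2204 to 3240 CPM against 2483 to 3000 CPM. The sum of 3240 CPM was that of neonate replicate 1, the library rich in parathyroid RNA. In that library Chga, among the higher markers, had 1552 CPM, against 740 CPM in neonate replicate 2 and 848 and 723 CPM in adults. Of 6 glial markers 2 were higher and 2 lower, with sums of 780 to 1583 CPM against 1579 to 1712 CPM, and of 4 endothelial markers 1 was higher and 1 lower, with sums of 657 to 717 CPM against 749 to 780 CPM. Fabp7, among the 2 higher glial markers, passed the filter through the neonatal libraries alone. Of 2 skeletal muscle markers tested none passed, at an unadjusted p of 0.0338 for Acta1 and 0.404 for Tnnt3. Their part in the levels of the clock genes was not tested. Without neonate replicate 1, the library rich in parathyroid RNA, the log2 fold change of Per1 was -1.45, of Clock -0.85 and of Arntl 0.48, each past the threshold in edgeR's test.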

How the data were processed

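RNA of pooled CBs was sequenced after poly A+ selection. Estimated counts, as deposited by the authors, came from trimmed reads through STAR and Salmon (1.5.2 in the processing notes) on Rnor_6.0, summed over the transcripts of a gene and neither normalized nor filtered. Counts were rounded. Genes annotated in the RefSeq table of GRCr8 as other than protein-coding (636, by symbol) were removed, a level of 1 CPM had to be reached in at least 2 libraries, and edgeR 4.0.16 (TMM, quasi-likelihood test, no covariates, Benjamini-Hochberg adjustment) was fitted on all 13843 genes in R 4.3.3. CPM in the text are raw counts scaled to a library total of 1000000, unless given as after TMM, while fold changes are after TMM. Ratios used log2 CPM with a prior count of 2.

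The 10 members and all lists were chosen with earlier results of these data known. Named were all members, 9 listed clock factors whatever their value, listed genes past 2-fold, and the 5 genes nearest to the member with the largest change. Other list genes and markers were named to account for counts, after their values were seen. A few listed genes, 2 of them among the 41 tested, enter the counts and are not reported singly here. Alternatives used DESeq2 1.42.0, limma 3.58.1, other scalings, filters and gene sets, a replicate block and each library left out. The procedure was tested on simulated data. Real-time PCR was not analysed here.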

Additional observations from a re-analysis of the deposited data

How the results depend on the processing

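Under library size alone, 1 member was higher in neonates in place of 4, since the log2 fold changes of Per2 (0.094), Cry1 (0.29) and Cry2 (0.24) no longer passed an adjusted p of 0.05 in edgeR's test, while 6 members were lower as before, beside 18.7% of all genes higher and 43.3% lower under this scaling. With 1 library left out, where the lone library of an age is taken to vary like the other pair, Per2 ran from 0.25 to 0.43 and Cry1 from 0.32 to 0.73, and each lost its call in 2 of the 4 fits. The other 8 members kept direction and call in all 14 alternatives, except Cry2 under library size alone. No member changed direction in any of them, and no ratio between members did so with a prior count of 0.5 or 5 or with RLE size factors. With 1 library left out, an alternative for the ratios chosen after seeing the data, the 9 ratios without overlap between ages cannot change direction by construction, while the other 4 did, with differences (neonate minus adult) of -0.24 to 0.25 for Cry1 over Arntl, -0.14 to 0.087 for Cry2 over Arntl, -0.17 to 0.095 for Cry2 over Cry1 and -0.21 to 0.14 for Nr1d2 over Nr1d1. Replicate numbers are shared between ages in the labels. Deviations of libraries with the same number were not correlated over genes (r = -0.015), but 2 libraries per age cannot exclude a shared litter or batch. With the replicate block Per1 was at -1.74 (SE 0.093, against 0.18 without the block). All 10 members passed with it, and 9093 genes were called in place of 8625. Corrections for gene length or GC content were not run, and at these depths Arntl2, Hlf and Bhlhe41 were too low for the main test.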
